A study of Homo sapiens with 10 samples.

Results

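The net difference in gene expression between U87 cells after 48 h of dibutyryl cAMP and U87 cells at 0 h was measured. U87 is an established human glioblastoma line, and dibutyryl cAMP is a cell-permeable analogue of cyclic AMP. The comparison uses 2 of the 10 libraries of the series: the U87 library at 0 h and the U87 library at 48 h, both labelled with a dose of 1 mM. Of the 20379 genes in the table, 11303 averaged 1 FPKM or more (fragments of a gene, scaled for transcript length and library depth) across the 5 U87 libraries at 0, 6, 12, 24 and 48 h and were kept. A difference is log2 of (FPKM at 48 h + 1) over (FPKM at 0 h + 1), so that 1.00 is a doubling, and the added 1 understates the differences of low genes.

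The other 5 libraries are the same course in DBTRG-05MG, another established glioblastoma line, and are used for comparison. Each line and time has 1 library, so every value below is a size with no replicate error and no test. No untreated library at a later time was analysed here, so dibutyryl cAMP and time in culture cannot be told apart. The label of 0 h carries the name of the drug too, and the series' own design text gives another dose unit and a longer treatment than the labels, which were followed. A free-text label on the U87 libraries names the other line, whereas their source and cell line labels give U87. SMOC1, a secreted matrix protein, did not exceed 0.0297 FPKM in any DBTRG-05MG library. It stood at 92.2, 236, 288, 333 and 270.1 FPKM in the U87 libraries in order of time. This sets the groups of libraries apart but does not say which line either group is.

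Cyclic AMP activates protein kinase A and the exchange factor EPAC. Protein kinase A phosphorylates the transcription factor CREB, which binds cAMP response elements in promoters, and its targets include phosphatases and phosphodiesterases that feed back on signalling. In astrocytic cells cyclic AMP is known for changing cell shape and slowing division.

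The U87 libraries were of like depth, from 93.8 to 102.3% of the 0 h library, with 101.2% at 48 h. The 0 h library held about 10.1 M fragments by an approximate estimate from 93 genes, at which 1 FPKM in a transcript of 2 kb is about 20.3 fragments. The non-coding RNA BCYRN1 took 9.15% of the summed FPKM at 0 h and 7.38% at 48 h, and up to 13.3% between. The 24 h and 48 h libraries stood farthest from the others. The 48 h library was at least 2-fold apart in 795 genes from 0 h, 1358 from 6 h, 1062 from 12 h and 1203 from 24 h, and the 24 h library in 817, 1303 and 597 from 0, 6 and 12 h, while 194 genes separated 6 h from 12 h. No library repeats another, so these distances have no replicate pair to be read against.

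Markers of astrocytes were mostly absent. Of 20 such markers 9 were kept, and 10 stayed below 1 FPKM in all 5 libraries. GFAP, the intermediate filament that defines astrocytes, stood at 0.147, 0.0717, 0.254, 0.156 and 0.145 FPKM and the calcium-binding protein S100B was listed at 0 throughout. The 9 markers that were kept had a median difference of 0.31, and none was 2-fold apart. Their summed level, with all list members counted, was 501 FPKM at 0 h and 769 FPKM at 48 h. CD44, a hyaluronan receptor of many cell types, and the BMP target ID3 carried that difference: without them the sum was 150.1 FPKM at 0 h and 149.9 FPKM at 48 h. Of 12 fibroblast and pericyte markers 8 were kept, with a sum of 234 FPKM at 0 h and 372 FPKM at 48 h and a median of 0.29. The collagen gene COL1A2 led them with 143 and then 297 FPKM. For microglia and macrophages 2 of 12 markers were kept, LYZ and the lysosomal protein CD68, and for endothelium 1 of 10, the receptor gene TEK. None of 9 lymphocyte and blood markers was kept, and 8 of these stayed below 1 FPKM. In bulk RNA a change in the number of cells of a kind and a change in RNA per cell cannot be told apart. The astrocyte sum moved with the endpoint through CD44 and ID3. The fibroblast and pericyte sum moved through COL1A2, which rose by more FPKM than the sum and is itself described among the matrix genes. That sum is therefore not separate from the matrix results, and the part of either set of markers in them was not tested.

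Most genes differed little. The difference was under 1.5-fold for 8483 genes, 75.1% of those kept. At least 2-fold higher at 48 h were 266 genes (2.35%) and at least 2-fold lower were 529 genes (4.68%), with 38 genes over 4-fold higher and 22 over 4-fold lower. The median over all genes was -0.18, so the table as deposited is centred below 0. Dividing each library by its median over the genes kept moved that centre to 0.04 and turned the split to 463 higher and 270 lower. Which direction holds more genes therefore depends on the scaling, and the list values below are best read against -0.18. The counts of list members at least 2-fold higher or lower are likewise best read against 2.35% and 4.68% of all genes. Genes at the edge of 2-fold included MYLK, a myosin light chain kinase, just below it with 42.8 and then 86.7 FPKM, and DCBLD2, a membrane receptor, at 141 and then 69.98 FPKM on the lower side.

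**Figure D1:**
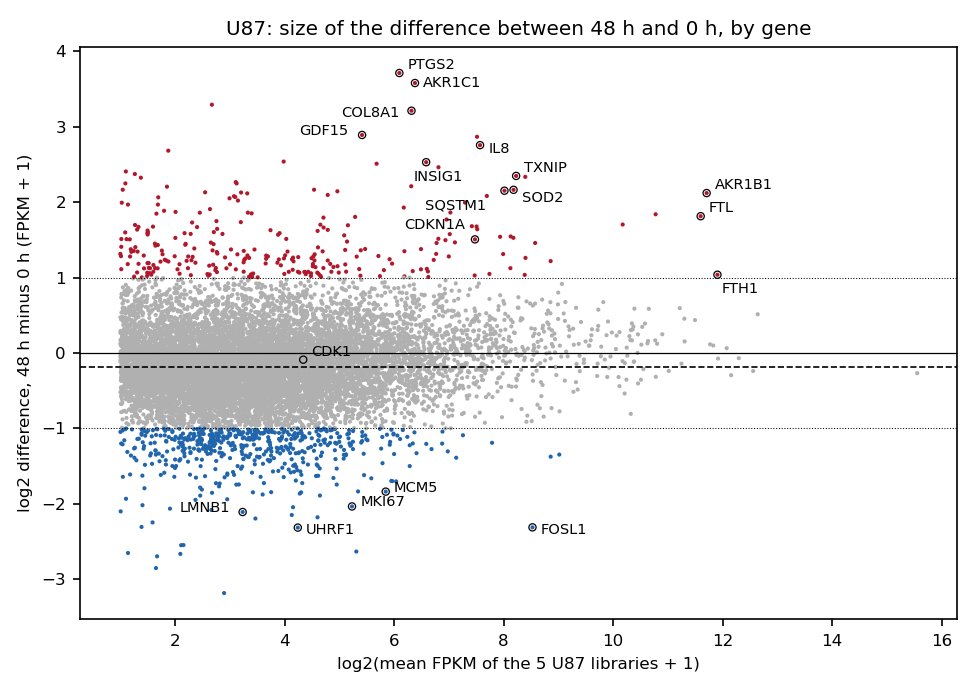
Difference between the 48 h and 0 h U87 libraries (vertical axis, log2 of FPKM + 1) against the mean level over the 5 U87 libraries (horizontal axis, log2) for 11303 genes. Red points are the 266 genes at least 2-fold higher, blue points the 529 at least 2-fold lower, dotted lines mark 2-fold and the dashed line the median of -0.18; FTL, FTH1 and AKR1B1 are among the most abundant genes that were higher.

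Prostaglandin and inflammatory genes were among the largest increases. PTGS2 encodes the inducible cyclooxygenase that makes prostaglandin precursors, and lies on GRCh38 chromosome 1, 186671791 to 186680427. Its levels at 0, 6, 12, 24 and 48 h were 11.4, 61.8, 63.7, 37.6 and 162 FPKM, a difference of 3.71. It was highest at 48 h and lowest at 0 h, and no gene averaging 5 FPKM or more had a larger increase. PTGES, the synthase that completes prostaglandin E2, stood at 7.51, 37.3, 41.5, 28.03 and 36.6 FPKM, a difference of 2.14, and had reached that level by 6 h. Of 10 kept genes of prostaglandin synthesis and signalling these 2 were at least 2-fold higher. The cytosolic phospholipase PLA2G4A, which releases arachidonic acid, differed by 0.48 and the receptor PTGER4 by -0.08.

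Chemokines, which attract leukocytes, had the highest median of the 48 lists with a kept member. Of 8 kept members 6 were at least 2-fold higher and none was lower, with a median of 1.83. The other 11 of 19 chemokines stayed below 1 FPKM in all 5 libraries, and with no filter the median was 0.066. A pseudocount of 5 gave 1.17 and the mean of 24 and 48 h against that of 0 and 6 h gave 0.64. In DBTRG-05MG the same 8 genes had a median of -0.19 with none higher and 1 lower, where 4% of all genes were at least 2-fold higher and 4.95% lower. IL8 (CXCL8), the main neutrophil attractant, stood at 40.2, 201, 199, 227 and 277 FPKM in U87 in order of time, a difference of 2.76. CXCL2 stood at 19.9, 32.1, 39.4, 42.2 and 118 FPKM and was highest at 48 h. Both were lowest at 0 h.

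CXCL3 stood at 4.28, 50.2, 30.5, 26.6 and 21.6 FPKM, peaking at 6 h, and CXCL1 at 0.994, 8.50, 13.8, 7.15 and 7.36 FPKM, peaking at 12 h. CXCL5 and the macrophage chemokine CCL3 differed by 1.53 and 1.59. Against 6 h in place of 0 h the median of the 8 was 0.03, with members going both ways. CXCL2 went from 32.1 FPKM at 6 h to 118 FPKM at 48 h, and CXCL3 from 50.2 to 21.6 FPKM. CCL26 and CCL5 differed by -0.11 and 0.37. CXCL1, CXCL2 and CXCL3 are near-identical copies, between which the counting could split reads, so their single values are uncertain.

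The promoters of 4 of these chemokines carry the same stretch of letters, and are shown because the genes were higher together. The letters GGAATTTCC, the form bound by NF-kappaB, were searched on both strands from 250 bases before to 50 bases after the first RefSeq start (GRCh38.p14), a search added after seeing the data. They were in 5 of 7 chemokine promoters in that table. Among all genes with a promoter in the table they were in 0.44% of 8924 genes kept and 0.48% of all 27305 promoters. They were in 2.81% of 178 genes at least 2-fold higher and 0.27% of 366 genes at least 2-fold lower. The higher genes held 5 matches, among them the 4 chemokines shown, so that share largely restates the chemokine count. CXCL1, CXCL2 and CXCL3 are near-identical copies, so their matches are not independent. A match is a description of letters and not a binding site. Capitals mark the match, each sequence is read on its gene's strand, and the match begins 77 or 78 bases before the start in CXCL1, CXCL2 and CXCL3 and 91 in IL8.
IL8, plus strand, chr4:73740468-73740496: tgcaaatcgtGGAATTTCCtctgacataa
CXCL1, plus strand, chr4:73869305-73869333: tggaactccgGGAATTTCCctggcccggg
CXCL2, minus strand, chr4:74099254-74099282: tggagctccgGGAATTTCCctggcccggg
CXCL3, minus strand, chr4:74038749-74038777: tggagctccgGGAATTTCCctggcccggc

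Cytokines went the same way. Of 16 kept interleukins and cytokines 6 were at least 2-fold higher and none was lower, with a median of 0.79, or 0.19 when 48 h is set against 6 h. GDF15, a stress-induced member of the TGF-beta family, stood at 17.5, 15.998, 17.3, 21.04 and 136 FPKM in order of time. The 48 h library was the only high one of the 5. IL11, a cytokine that signals through gp130, was at 5.90, 187, 337, 329 and 49.3 FPKM and IL6 at 13.6, 87.8, 115, 198 and 30.5 FPKM. Both ended above 0 h, by 2.87 and 1.11, and below their own levels at 6, 12 and 24 h. The interleukin-1 family gene IL1A differed by 1.598, IL18 by 1.43 and IL33 by 1.29, all 3 from about 1 FPKM. The abundant IL1B and CSF3 stood at 362 and then 295 FPKM and at 367 and then 556 FPKM.

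Among 18 cytokine receptors and genes of STAT3 feedback, IL6ST, the shared gp130 receptor chain, was the 1 at least 2-fold apart, at 44.6, 60.9, 72.3, 26.2 and 19.4 FPKM and a difference of -1.16. As a share, 5.56% of the list was lower, near the 4.68% of all genes. The feedback inhibitor SOCS3 differed by -0.46 and STAT3 itself by 0.55.

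Genes of NF-kappaB and its feedback were split. Of 20 kept, 7 were at least 2-fold higher and none was lower, with a median of 0.23. SOD2, the mitochondrial superoxide dismutase, stood at 138, 241, 348, 99.4 and 619 FPKM and IER3, an early response gene, at 52.9, 73.2, 133, 193 and 195 FPKM. The subunits RELB and NFKB2 differed by 1.57 and 1.03. NFKB1 and RELA, which form the classical dimer, differed by -0.67 and -0.36, and the inhibitor NFKBIA by 0.09. SOD2 was at its lowest in the 24 h library, below 0 h. Interferon-stimulated genes, another inflammatory list, had 1 of 29 at least 2-fold higher (3.45%, beside 2.35% of all genes) and a median of 0.15.

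**Figure D2:**
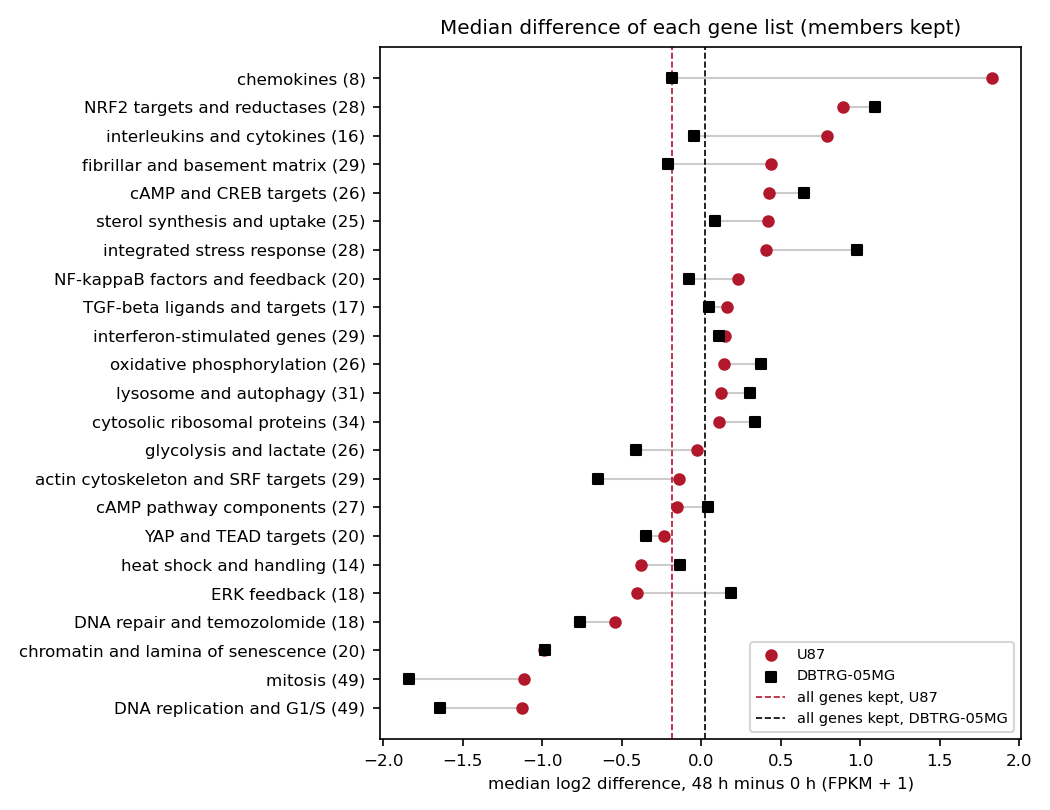
Median log2 difference between 48 h and 0 h for 23 gene lists in U87 (red circles) and DBTRG-05MG (black squares), with the number of members kept in U87 in brackets and dashed lines at the medians over all genes kept, -0.18 and 0.02. Chemokines lie at 1.83 in U87 and -0.19 in DBTRG-05MG, whereas replication and mitosis genes lie lowest in both lines.

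Targets of NRF2, the transcription factor of the antioxidant response, and related reductases were higher. Of 28 kept, 12 were at least 2-fold higher and none was lower, with a median of 0.89. AKR1C1, a reductase of steroids and aldehydes on GRCh38 chromosome 10, 4963253 to 4983283, stood at 17.2, 60.9, 88.3, 28.7 and 216 FPKM in order of time, a difference of 3.58. NQO1, which reduces quinones, stood at 50.8, 86.5, 87.7, 46.2 and 285 FPKM and SQSTM1, the autophagy receptor p62, at 126, 205, 239, 156 and 563 FPKM. In all 3 the 48 h library was the highest, while at 24 h NQO1 was below its 0 h level. AKR1C1 shares near-identical sequence with AKR1C2, and AKR1B10 is closely related to AKR1B15, so reads could be split within each pair.

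The aldose reductase AKR1B1 was among the most abundant genes, at 1275, 4179.8, 4251, 1454 and 5547 FPKM. The thioredoxin reductase TXNRD1 stood at 135, 129, 91.00, 62.5 and 434 FPKM and the pentose phosphate enzyme TKT at 301, 287, 274, 212 and 828 FPKM. The glutamate-cysteine ligase subunits GCLC and GCLM, classical targets of NRF2, differed by 0.43 and 0.13. At 24 h against 0 h the list median was -0.18, equal to that of all genes. For the mean of 24 and 48 h against that of 0 and 6 h it was 0.31. The summed level, in which AKR1B1 weighs heavily, was 3496, 6637, 6582, 3266 and 10391 FPKM in order of time. It was above 0 h at 6 h and 12 h, below it at 24 h and highest at 48 h. The letters TGACNNNGC, a core of the antioxidant response element, were in 4 of 20 promoters of the list, 15.7% of genes kept and 13.6% of all promoters, also on both strands and added after seeing the data.

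Iron storage and thioredoxin control moved in the same library. The ferritin genes FTL and FTH1, which encode the iron storage shell, stood at 2245, 1738, 2462, 1156 and 7892 FPKM and at 3199.5, 2792, 3181, 3415 and 6567 FPKM. HMOX1, which frees iron from haem, stood at 111, 103, 75.7, 73.6 and 271 FPKM, and these 3 were the members at least 2-fold higher among 12 kept genes of iron handling. The transferrin receptor TFRC differed by -0.23. TXNIP, which binds and inhibits thioredoxin, stood at 225, 28.3, 42.6, 50.7 and 1148 FPKM: it was at least 4-fold below 0 h at 6, 12 and 24 h and 5.11 times its 0 h level at 48 h. FTL and HMOX1 were also below 0 h at 24 h.

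In cholesterol control INSIG1 stood above the rest. This gene, whose protein retains the sterol sensor in the endoplasmic reticulum, stood at 54.5, 35.8, 29.1, 36.3 and 319 FPKM, a difference of 2.53, after 3 libraries below 0 h. Of 25 kept genes of sterol synthesis and uptake 2 were at least 2-fold higher, none was lower, and the median was 0.42, against -0.22 at 24 h. HMGCS1, an early enzyme of the pathway, differed by 0.68.

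Matrix genes were higher in part. Of 29 kept members 6 were at least 2-fold higher and none was lower, with a median of 0.44. COL8A1, a short-chain collagen, stood at 7.95, 118, 118, 68.6 and 82.00 FPKM, a difference of 3.21, with the 0 h library far below the other 4. TGFBI, an adhesion protein induced by TGF-beta, stood at 689, 1504, 2159, 1937 and 2467 FPKM and the BMP antagonist GREM1 at 158, 306, 263, 204 and 462 FPKM. SPARC and SMOC1, secreted matrix proteins, differed by 1.31 and 1.54. COL1A1 and COL1A2 encode chains of the same collagen and differed by -0.75 and 1.05.

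Of 15 kept genes of plasminogen and coagulation 3 were at least 2-fold higher and none was lower, with a median of 0.11. SERPINE2, which inhibits thrombin, stood at 80.9, 378, 529, 277 and 412 FPKM and the inhibitor TFPI2 at 589, 1063, 1155, 1044 and 1918 FPKM. The third was the plasminogen activator PLAT. FST, which binds activin, stood at 6.45, 164, 118, 70.1 and 33.5 FPKM, with its highest level at 6 h.

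Genes of DNA replication were lower. Of 49 kept, 30 were at least 2-fold lower and none was higher, with a median of -1.13, or -0.45 when 48 h is set against 6 h and -0.33 for the mean of 24 and 48 h against that of 0 and 6 h. UHRF1, which recruits the maintenance DNA methyltransferase, stood at 24.8, 15.4, 28.9, 16.2 and 4.18 FPKM, a difference of -2.32. The helicase subunits MCM5 and MCM3 stood at 86.3, 47.1, 60.5, 65.3 and 23.4 FPKM and at 93.7, 51.3, 70.7, 79.5 and 28.1 FPKM. For all 3 the 48 h library was the lowest of the 5. CDC25A, the phosphatase that opens the way into S phase, differed by -1.79 and the sliding clamp PCNA by -1.22.

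Not all members followed. TK1 and RRM2, enzymes of nucleotide supply, differed by -0.12 and -0.39, the cyclin CCNE1 by 0.17 and E2F1 by -0.45. In DBTRG-05MG these 4 genes differed by -1.73, -2.35, -1.16 and -1.52, and 46 of the 49 were at least 2-fold lower.

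Genes of mitosis were lower in part of the list. Of 49 kept, 28 were at least 2-fold lower and none was higher, with a median of -1.12, or -0.53 when 48 h is set against 6 h. MKI67, a coat protein of mitotic chromosomes used as a marker of proliferation, stood at 53.7, 38.2, 21.1, 57.4 and 12.3 FPKM in order of time, a difference of -2.04. Its 24 h level was above that at 0 h, and the 48 h level was the lowest. CDCA8 of the chromosomal passenger complex differed by -1.89, the checkpoint kinase BUB1B by -1.86 and the kinetochore protein NDC80 by -1.85. At 24 h the replication list lay near 0 h, with a median of -0.15, and the mitosis list at -0.56. The summed level of the replication list was 1299, 854, 1006, 1185 and 658 FPKM in order of time, lower at 6 h, near its start at 24 h and lowest at 48 h.

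A group of mitotic genes was back near its 0 h level at 48 h. CDK1, the mitotic kinase, stood at 27.6, 21.3, 9.44, 11.9 and 25.9 FPKM and TOP2A, which untangles DNA, at 62.3, 53.99, 20.3, 34.7 and 49.7 FPKM. UBE2C, an enzyme that feeds the anaphase-promoting complex, stood at 146, 131, 71.99, 148 and 128 FPKM. In all 3 the lowest library was that at 12 h and the 48 h level was within 1.5-fold of 0 h. KIF2C and PTTG1, which act on kinetochores and on sister chromatids, differed by -0.31 and -0.40. In DBTRG-05MG these 5 genes differed by -1.81, -1.63, -2.21, -1.86 and -1.84, and 47 of the 49 were at least 2-fold lower. The 9 genes of division named as near 0 h here and above were chosen after their values were seen.

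Transcript length moved with these counts. Among the 10 mitotic genes whose longest coding transcript was at most 2000 bases, 3 were at least 2-fold lower and the median was -0.76, and among the 20 longer than 3500 bases 16 were, with a median of -1.20. In DBTRG-05MG the medians of the same genes were -1.74 and -1.90, with 9 of 10 and 20 of 20 at least 2-fold lower. Over all genes the U87 difference was also lower in longer transcripts, from a median of 0.02 in 371 genes of at most 1000 bases to -0.28 in 1949 genes over 6000. In DBTRG-05MG the medians of the same 2 groups were 0.26 and -0.005, so the fall with length was seen in both lines. In the 24 h library the shortest group lay at -0.47 against 0 h. The part of length in the mitotic counts was not tested.

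Promoter letters are shown for mitotic and replication genes, the lists with the most members lower. The letters TTTGAA, the core of the cell cycle homology region, were in 30 of 42 mitotic promoters (71.4%), in 22.4% of genes at least 2-fold lower, 8.43% of those at least 2-fold higher, 9.46% of genes kept and 15.5% of all promoters. TTCCCGC, a form of the E2F site, was in 17 of 40 replication promoters (42.5%), 15.0% of genes lower, 5.62% of genes higher, 10.8% of genes kept and 6.55% of all promoters. TTTGGCGC, another E2F form, was in 22.5% of the replication promoters, 4.37% of genes lower, none of the 178 higher, 1.13% of genes kept and 0.66% of all promoters. The genes at least 2-fold lower include 28 of the mitosis list and 30 of the replication list, so their shares partly restate the list shares. Both strands were searched, and UHRF1 and TYMS hold the E2F form on the reverse strand. The TTTGAA match listed begins 161 bases before the start in CDK1, and at 29, 23 and 23 in MKI67, CDCA8 and BUB1B. In CCNB2 and PLK1, whose sequences are not shown, it begins at 29. Only 1 match is listed for each gene, and it may not be the only one. Whether this position goes with the level was not tested.
MKI67, minus strand, chr10:128126437-128126462: ttcgttttcgTTTGAAttgggcgggc
CDCA8, plus strand, chr1:37692483-37692508: gactgtggagTTTGAAttgggtggcg
BUB1B, plus strand, chr15:40161036-40161061: gaccgttaaaTTTGAAacttggcggc
CDK1, plus strand, chr10:60778160-60778185: gtataataaaTTTGAActgtgccaat
UHRF1, plus strand, chr19:4909477-4909500: ccgagttttcGCGGGAAaaaaatc
TYMS, plus strand, chr18:657604-657630: cgggacggccGCGGGAAaaggcgcgcg

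**Figure D3:**
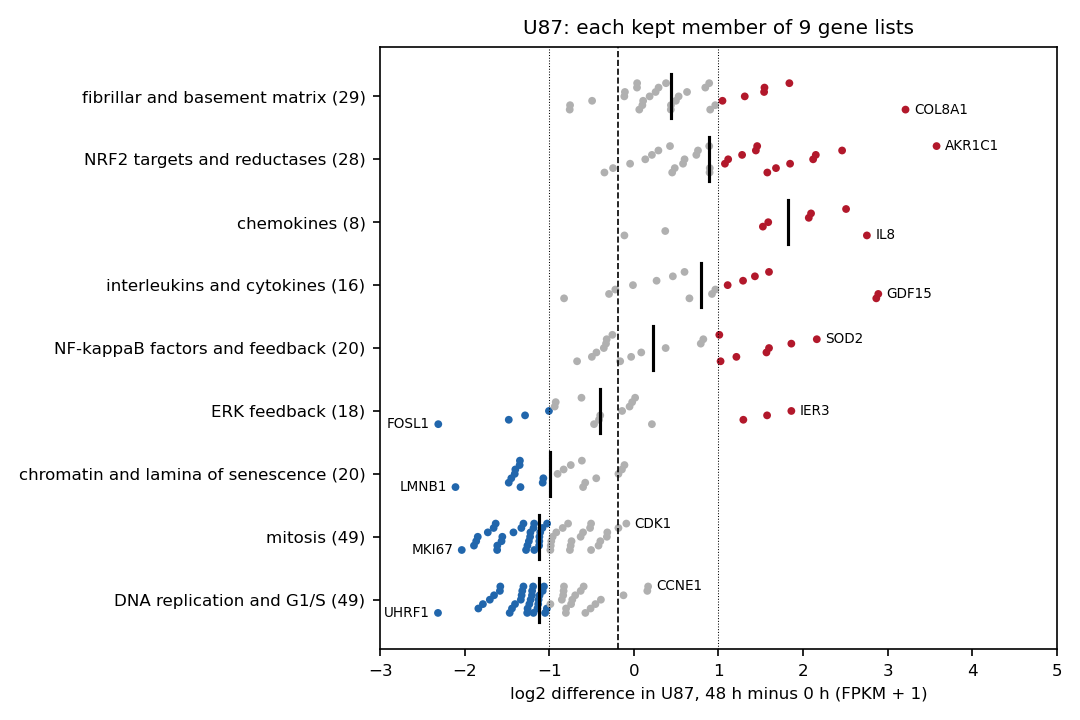
Log2 difference between 48 h and 0 h in U87 for each kept member of 9 gene lists (number kept in brackets); points are spread vertically only for legibility, thick bars are list medians, dotted lines mark 2-fold and the dashed line the median of all genes. The mitosis points run from -2.04 for MKI67 to -0.09 for CDK1, and no replication, mitosis or lamina and chromatin member lies beyond 2-fold higher.

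Chromatin and lamina genes that fall in senescent cells were lower, 10 of 20 by at least 2-fold with none higher and a median of -0.99. Against 6 h the median was -0.37, and at 24 h against 0 h it was -0.34. The nuclear lamina gene LMNB1, on GRCh38 chromosome 5, 126776623 to 126837020, stood at 12.1, 11.2, 7.73, 8.94 and 2.03 FPKM, a difference of -2.11. The lamin B receptor LBR, the histone methyltransferases EZH2 and SUV39H1 and the chromatin protein HMGA2 differed by -1.48, -1.45, -1.40 and -1.34. The list shares the gene DNMT1 with the replication list. Of 18 genes of DNA repair 2 were at least 2-fold lower, with a median of -0.54.

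Inhibitors and cyclins of G1 went both ways. CDKN1A, the inhibitor p21, stood at 140.1, 58.6, 61.5, 225 and 399.7 FPKM, a difference of 1.51: it was below 0 h at 6 h and 12 h and above it at 24 h and 48 h. CCND1, a G1 cyclin, stood at 101, 75.01, 100.1, 81.1 and 43.2 FPKM. The E2F repressors E2F8 and RBL1 differed by -1.50 and -1.50. CDKN2A, a tumour suppressor used as a senescence marker, did not exceed 0.0506 FPKM in any U87 library, 0 h included, and so says nothing here about senescence. Of 22 kept p53 targets 3 were at least 2-fold higher, GDF15, CDKN1A and PLK2, and 1 lower, the death receptor FAS at -1.14, with a median of -0.16, which is 0.06 after median scaling.

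Feedback genes of the ERK pathway were split. Of 18 kept, 3 were at least 2-fold higher and 4 lower, with a median of -0.41. FOSL1, an AP-1 subunit that follows ERK activity, stood at 571, 186, 346, 622 and 114 FPKM, a difference of -2.31, and its 24 h level was above 0 h. The ERK phosphatase DUSP6 stood at 25.8, 20.01, 25.8, 34.8 and 8.61 FPKM and SPRY4, an inhibitor of receptor kinases, differed by -1.29. DUSP1 and DUSP10, phosphatases of stress kinases, were higher by 1.58 and 1.29, as was IER3. Among receptor kinase ligands FGF7 and FGF2 were higher by 1.91 and 1.24, and the ErbB ligand NRG1 differed by -1.36. FGF2 stood at 7.10, 27.4, 13.1, 3.62 and 18.1 FPKM and was below 0 h at 24 h.

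Known targets of cAMP and CREB had a median above that of all genes. Of 26 kept, 5 were at least 2-fold higher and none was lower, with a median of 0.43: PTGS2, PDE4B, DUSP1, ATF3 and PER1. The phosphodiesterase PDE4B, which breaks down cyclic AMP, stood at 7.52, 36.3, 34.2, 22.1 and 25.99 FPKM and DUSP1 at 45.5, 117, 201, 141 and 138 FPKM. DIO2, which activates thyroid hormone, stood at 3.68, 155, 51.7, 15.1 and 6.83 FPKM and had lost most of its 6 h level. Against 6 h the list median was -0.32. Of 27 components of the cyclic AMP pathway 1, the kinase inhibitor gene PKIA, was at least 2-fold lower, at -1.21. That is 3.70%, near the 4.68% of all genes.

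The full cAMP response element, TGACGTCA, was in the promoters of 13 of 178 genes at least 2-fold higher (7.30%), 16 of 366 lower (4.37%), 3.53% of genes kept and 1.97% of all promoters. By list it was in 2 of 23 cAMP and CREB targets (8.70%). It was also in 4 of 42 mitosis promoters (9.52%) and 3 of 40 replication promoters (7.50%), lists that were lower. The TGACG core, which the full element contains, was in 38.2, 38.5 and 35.6% of the higher, lower and kept genes. Shown are DUSP1, PCSK1, a hormone-processing protease at 1.12, 15.3, 8.79, 6.48 and 7.59 FPKM, GABARAPL1, an autophagy gene at 12.6, 15.9, 11.1, 12.7 and 31.8 FPKM, and DIO2. The first 3 were at least 2-fold higher at 48 h and DIO2 was not.
DUSP1, minus strand, chr5:172771303-172771330: gcagggcgggTGACGTCAccgccccgtc
PCSK1, minus strand, chr5:96433308-96433335: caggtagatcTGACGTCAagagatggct
GABARAPL1, plus strand, chr12:10212837-10212864: gctcgcggggTGACGTCAcagcccgacg
DIO2, minus strand, chr14:80212257-80212284: tctttctcaaTGACGTCAagatctttac

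Of 20 kept YAP and TEAD targets 3 were at least 2-fold higher and 1 lower, with a median of -0.23. CYR61, a matrix protein, differed by 1.80 and AMOTL2, which holds YAP at junctions, by 1.10. Of 17 TGF-beta genes 4 were higher, among them the ligand TGFB2 at 4.97, 9.75, 6.95, 8.77 and 13.2 FPKM, and 1 was lower, the latent binding protein LTBP2 at -1.19. Of 13 BMP genes the ligand BMP6, at 1.97, 9.88, 3.89, 3.52 and 7.19 FPKM, and GREM1 were higher, and ID1 was lower by 2-fold or more.

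Actin genes, known to change with cell shape, had a median of -0.14, which turned to 0.10 after median scaling, so its sign is set by the scaling. Of 29 kept, RND3, an atypical small GTPase, was higher by 1.64 and ROCK2, a kinase that drives actomyosin contraction, lower, at -1.19. In DBTRG-05MG 7 of the same 29 were at least 2-fold lower and the median was -0.65. The filament genes of epithelial and nuclear lamina type KRT7 and LMNB2 differed by 1.27 and -1.07.

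Stress and metabolism lists gave smaller values. Of 28 kept genes of the integrated stress response 6 were at least 2-fold higher, among them STC2, a secreted glycoprotein (1.69), the proline enzyme PYCR1 (1.56) and CEBPB (1.08), with a median of 0.41. None of 22 endoplasmic reticulum chaperones was 2-fold apart. Of 14 heat shock genes HSPH1 and DNAJB1 were at least 2-fold lower, at -1.13 and -1.04, and the abundant chaperones HSPA8 and HSP90AA1 stood at 1094 and then 624 FPKM and at 435 and then 231 FPKM. The cystine and amino acid transporters SLC7A11, SLC7A5 and SLC3A2 were the 3 of 12 that were higher, by 1.44, 1.37 and 1.08.

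Glycolysis genes had 2 of 26 at least 2-fold higher, the glucose transporter SLC2A3 at 12.2, 9.14, 10.7, 10.7 and 28.6 FPKM and PDK4, which restrains pyruvate entry into mitochondria, at 0.347, 3.31, 1.02, 0.853 and 2.06 FPKM. The list median was -0.03, and 0.23 after median scaling, so its sign depends on the scaling. LDHA, which makes lactate, stood at 917, 1111, 1491, 1221 and 734 FPKM and the hexokinase HK2 at 15.8, 19.1, 20.7, 17.8 and 23.5 FPKM. The main glucose transporter SLC2A1 stood at 12.4, 53.5, 69.2, 31.6 and 8.16 FPKM, with a peak at 12 h and its lowest level at 48 h.

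Among hypoxia-induced genes, 20 of which were kept, the vasodilator peptide gene ADM was higher, at 36.2, 173, 141, 91.1 and 101 FPKM, and ANKRD37 lower, at 1.48, 4.65, 5.15, 1.46 and 0.104 FPKM. HIF1A, the oxygen-regulated subunit of the hypoxia factor, differed by 0.92. Of 26 genes of oxidative phosphorylation TFAM, which packages and transcribes mitochondrial DNA, was the 1 past 2-fold, at -1.01. That is 3.85%, near the 4.68% of all genes lower. The complex II subunit SDHA differed by 0.82. None of 34 ribosomal proteins was 2-fold apart, and their median was 0.11.

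Of 31 lysosome and autophagy genes 3 were at least 2-fold higher, SQSTM1, GABARAPL1 and the cholesterol exporter NPC1, with a median of 0.12. Of 13 metalloproteases and inhibitors the stromelysin MMP3 was the 1 at least 2-fold higher, at 22.6, 43.1, 43.5, 28.7 and 56.3 FPKM, and the membrane protease MMP14 stood at 154, 69.8, 85.3, 121 and 249 FPKM. Histone genes seen in these poly(A) libraries also differed, with HIST1H1C at 9.85, 7.78, 7.83, 8.05 and 24.8 FPKM and HIST2H2BE at 2.04, 3.99, 2.62, 3.64 and 10.05 FPKM. These 2 were the members of 11 kept replication-dependent histones past 2-fold, in a list with a median of -0.01 that is 0.19 after median scaling.

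Several of the largest differences lay outside the lists. GALNT15, which starts O-linked glycans, stood at 0.872, 2.95, 2.60, 3.11 and 17.3 FPKM, a difference of 3.29, and was high in the 48 h library only. CSGALNACT1, an enzyme of chondroitin sulfate synthesis, stood at 2.18, 26.4, 17.1, 10.9 and 17.5 FPKM with a peak at 6 h, and RCN3, a calcium-binding protein of the secretory pathway, at 9.75, 13.6, 19.4, 21.2 and 47.2 FPKM. FDCSP, a small secreted protein, stood at 1.40, 7.17, 13.04, 5.96 and 10.5 FPKM.

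On the lower side ARHGAP22, which switches off Rac, stood at 23.98, 6.12, 7.10, 8.63 and 4.45 FPKM and the transcription factor gene FOXL1 at 46.3, 23.4, 21.7, 15.4 and 9.45 FPKM. Both were below 0 h in every later library. SLCO4A1, an organic anion transporter, stood at 32.4, 10.7, 17.3, 16.5 and 7.10 FPKM. NOP16, which takes part in ribosome assembly, stood at 13.2, 20.9, 11.9, 6.70 and 2.87 FPKM, NDP, a Wnt pathway ligand, at 15.2, 30.8, 31.3, 12.7 and 3.51 FPKM and ZNF367, a zinc finger gene, at 9.04, 4.07, 8.93, 3.27 and 1.37 FPKM. NOP16 and NDP were above 0 h at 6 h and lowest at 48 h.

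The 48 h library was the highest of the 5 for 193 of the 266 higher genes and the lowest for 422 of the 529 lower genes. Of the other higher genes 33 peaked at 6 h, 27 at 12 h and 13 at 24 h. Between 6 h and 24 h, libraries that the endpoint does not use, the median difference was -0.19 for the higher genes and -0.17 for the lower genes, beside -0.17 for all genes. The 3 medians lie close together, although the groups were chosen to differ at the end.

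**Figure D4:**
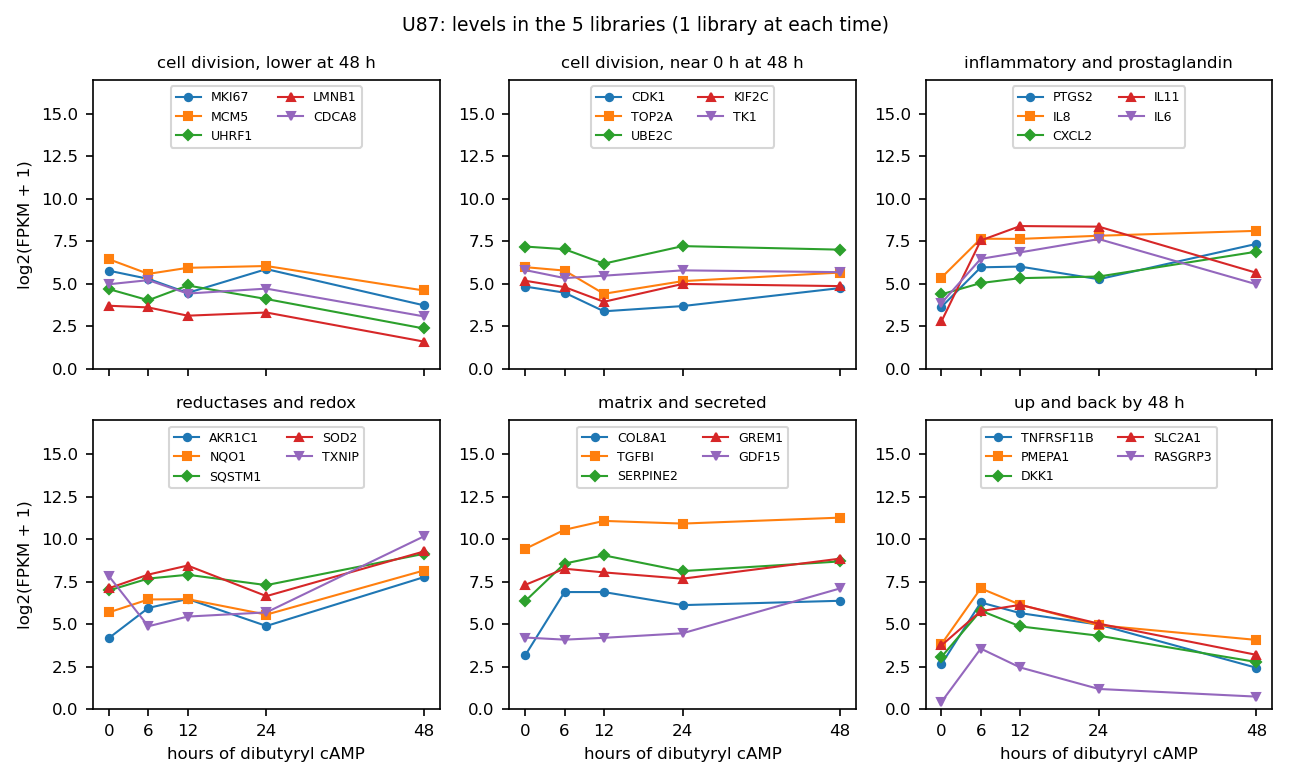
Levels of 30 genes in the 5 U87 libraries, as log2(FPKM + 1) against hours of dibutyryl cAMP, in 6 panels of 5 genes; each point is 1 library, and lines only join the points. CDK1, TOP2A, UBE2C and KIF2C dip at 12 h and return. The reductase and redox genes stand highest at 48 h, with NQO1, SOD2 and TXNIP below their 0 h level at 24 h. The genes of the last panel end within 1.5-fold of their start as FPKM + 1.

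A net value hides genes that changed and came back. By a rule of at least 4-fold above both ends in a middle library with a net difference under 1.5-fold, 21 genes peaked and 15 dipped, of 11303. TNFRSF11B, a decoy receptor that limits bone resorption, stood at 5.22, 76.5, 49.2, 30.4 and 4.41 FPKM and PMEPA1, a TGF-beta feedback gene, at 13.1, 137, 69.7, 29.6 and 15.8 FPKM. DKK1, a Wnt inhibitor, stood at 7.38, 54.5, 28.2, 18.9 and 5.84 FPKM and RASGRP3, a Ras exchange factor, at 0.336, 10.8, 4.47, 1.27 and 0.663 FPKM. All 4 peaked at 6 h. The dips were mostly short RNA loci in the 24 h library, and the trafficking gene TMED7 stood at 19.95, 23.5, 19.5, 3.73 and 27.1 FPKM.

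Loci of short RNAs (microRNA, snoRNA and scaRNA genes) made up 27 of the 266 higher and 52 of the 529 lower genes although they were 181 of the genes kept. SNORD44 stood at 8.09, 18.98, 1.68, 3.45 and 0 FPKM and the microRNA locus MIR138-1 at 41.9, 18.5, 56.9, 70.1 and 5.91 FPKM. Poly(A) libraries do not measure the mature forms, and short loci rest on few fragments, so these values are uncertain.

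DBTRG-05MG, compared over the same times and the same 11303 genes, shares no library with U87. Of the U87 genes at least 2-fold higher, 65 were so in DBTRG-05MG. They are 24.4% of the U87 genes, beside 4% of all genes higher in DBTRG-05MG. They are 14.4% of the DBTRG-05MG genes, beside 2.35% of all genes higher in U87. Of the lower genes 196 were shared. That is 37.1% of the U87 genes, beside 4.95% of all genes lower in DBTRG-05MG. It is 35.1% of the DBTRG-05MG genes, beside 4.68% of all genes lower in U87. Across genes the differences had a Pearson correlation of 0.38 and a Spearman correlation of 0.38, a description over genes that are not independent. AKR1C1, GDF15 and IL11 were higher in both lines, with 2.39, 2.66 and 2.29 in DBTRG-05MG.

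Opposite directions of at least 2-fold were found for 15 genes higher in U87 and lower in DBTRG-05MG and for 22 the reverse. These are 5.64% of the genes higher in U87, where 4.95% of all genes were lower in DBTRG-05MG, and 4.16% of the genes lower in U87, where 4% of all genes were higher in DBTRG-05MG, so both counts lie near the background. CYR61 (CCN1), a matrix protein controlled by YAP, stood at 17.1, 53.9, 35.4, 21.8 and 62.2 FPKM in U87 and, in DBTRG-05MG at 0 h and 48 h, at 29.2 and then 3.73 FPKM. COL8A1 stood at 20.1 and then 5.88 FPKM there, and CXCL1 at 243 and then 86.5 FPKM. ID1, a target of BMP signalling, stood at 129 and then 60.1 FPKM in U87, against 65.1 and then 273 FPKM in the other line. Whether the lines differ in these genes was not tested, since neither has a replicate.

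**Figure D5:**
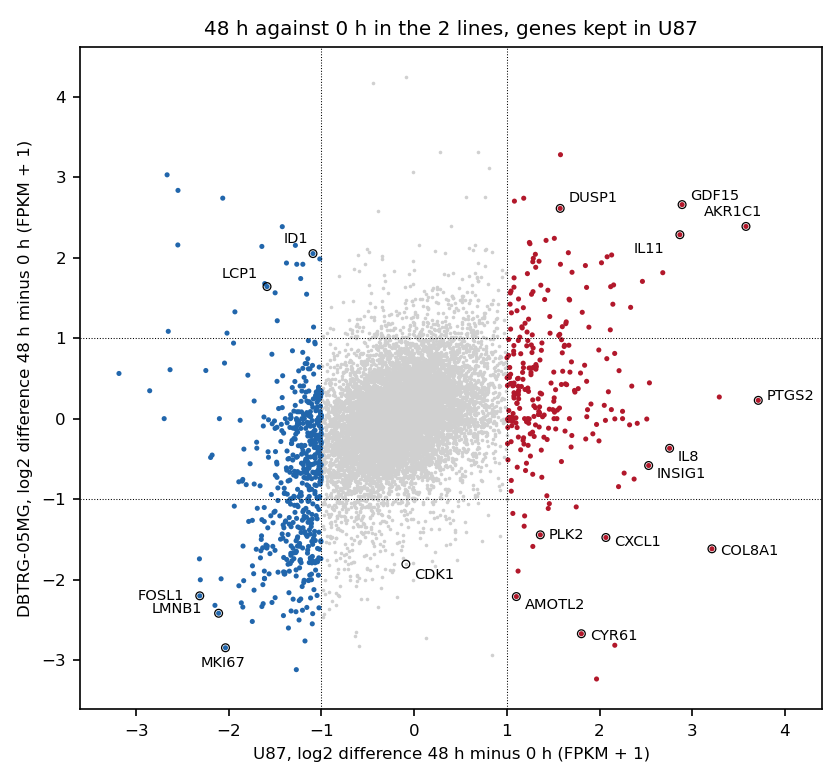
Log2 difference between 48 h and 0 h in DBTRG-05MG (vertical axis) against that in U87 (horizontal axis) for the 11303 genes kept in U87, with dotted lines at 2-fold. Red and blue points are at least 2-fold higher or lower in U87; COL8A1, CYR61 and CXCL1 lie at the lower right, ID1 and LCP1 at the upper left, and CDK1 lies near 0 in U87 and at -1.81 in DBTRG-05MG.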

How the data were processed

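Poly(A) RNA from 2 cell lines was sequenced at 5 times, with 1 library for each. The deposited table gives 1 value per gene and library, read as FPKM. The labels do not state that unit, which was inferred from values that step in whole fragments scaled by transcript length, and counts were not used here. HISAT, Bowtie2, RSEM and hg38 are named, per the submitters' processing notes, and versions are not given in the sources used here. The authors' value of 0.002 was read as 0. Spreadsheet software had turned 25 symbols into dates, 15 of which were kept and none named.

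Samples were grouped by line and time from the labels. Differences are log2(FPKM + 1), with a pseudocount of 1 and a filter of a mean of at least 1 FPKM over the U87 libraries, computed with Python 3.11.15, numpy 2.4.6 and pandas 2.3.3, and drawn with matplotlib 3.10.9. The size calculation was tested on simulated data. Relative depth came from the step of 1 fragment at low values. With no replicate, the precision of a difference is unknown and no test was made.

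The members and 49 gene lists were chosen with earlier results of these data known. Named were the 20 genes with the largest increase and the 20 with the largest decrease at a mean of at least 5 FPKM, up to 4 genes per list by size, 10 per direction that differed most between the lines, 10 peaks that reached at least 5 FPKM, the 9 dips whose ends did so, and IL6, IL11, CDKN1A, GDF15, MKI67, PTGS2, GFAP, LDHA and HK2. Other list members named were chosen after their values were seen, to show members that did not follow their list or that complete a pathway. Gene positions are from GENCODE release 29 on GRCh38 and promoters from RefSeq on GRCh38.p14, with the first start of each gene. Alternatives were the pseudocount, the filter, the scaling, the threshold, a mean of late against early libraries and, added after seeing the data, other libraries as the ends, a filter without the 24 h library, 2 motifs and a split by transcript length.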

Additional observations from a re-analysis of the deposited data

Results flagged for a closer look

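A group of genes was at least 2-fold apart in opposite directions in the lines between 0 h and 48 h, and those among the genes named by rule were picked out for that reason. All such genes numbered 15 and 22, shares of 5.64% and 4.16% near the all-gene shares of 4.95% and 4%. Each value is the U87 log2 difference minus that of DBTRG-05MG, and none of these differences was tested, since each line and time has 1 library. Higher in U87 and lower in DBTRG-05MG were the collagen gene COL8A1 at 4.83, the matrix gene CYR61 at 4.48, the chemokine CXCL1 at 3.55 and the YAP target AMOTL2 at 3.31. With them were the kinase PLK2 at 2.80, the plasminogen activator PLAT at 2.52, the vasodilator peptide gene ADM at 2.51 and the snoRNA locus SNORA8 at 2.87. Lower in U87 and higher in DBTRG-05MG were the actin-bundling gene LCP1 at -3.23 and the BMP target ID1 at -3.14. Named short or non-coding RNA loci of that direction were SNORD102 at -3.31, SNHG9 at -2.96, MIR222 at -2.71 and SNORD60 at -2.69. In U87 SNORA8 changed sign with 24 h in place of 48 h and in the mean of late against early libraries, and COL8A1 (-0.51), CXCL1 (-0.18) and ADM (-0.77) with 6 h in place of 0 h.

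Markers were also on opposite sides of the all-gene median in the lines. Relative to that median, the astrocyte list lay 0.97 higher in U87 than in DBTRG-05MG and the fibroblast and pericyte list 0.89 higher, as differences of list medians. These were not tested either.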

How the results depend on the processing

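The counts of 266 genes higher and 529 lower moved by over 1.5 times under several choices. A pseudocount of 5 gave 118 and 145, median scaling 463 and 270, the mean of 24 and 48 h against that of 0 and 6 h 79 and 223, a threshold of 1.5-fold 809 and 2011, and a threshold of 4-fold 38 and 22. A pseudocount of 0.1 gave 912 lower, and 48 h against 6 h gave 980 lower. The other settings run, including upper quartile scaling (340 and 382), removal of BCYRN1 (258 and 576), 24 h against 0 h (264 and 553) and a filter without the 24 h library (267 and 536), kept both counts within 1.5 times. Counts do not say that the same genes were called.

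Under the 3 other scalings all 219 named genes that were kept kept their sign where at least 2-fold, and their folds stayed within 1.5 times of those reported. Changing an end of the comparison, chosen after seeing the data, reversed more. With 24 h in place of 48 h the NRF2 list median was -0.18, and the log2 differences that changed sign (25 genes) were INSIG1 -0.57, NQO1 -0.13, TXNIP -2.13, AKR1B15 -0.25, SOD2 -0.46, MIR138-1 0.73, FOSL1 0.12, MIR663A 1.79, MKI67 0.094, E2F8 0.043, IL1A -0.10, SLC2A3 -0.17, FTL -0.96, HMOX1 -0.59, SLC7A11 -0.26, SLC3A2 -0.27, NRG1 0.70, FGF2 -0.81, DUSP6 0.42, IFI27 -0.28, HIST1H1C -0.26, EZH2 0.13, DBP -0.32, SNORA8 -1.35 and METTL7B 0.11. With 6 h in place of 0 h those that changed sign (18 genes) were COL8A1 -0.51, IL11 -1.90, CSGALNACT1 -0.57, FST -2.26, PTGES -0.026, MIR25 0.013, PDE4B -0.47, CXCL3 -1.18, CXCL1 -0.18, PDK4 -0.50, ADM -0.77, SLC7A5 -0.43, SLC3A2 -0.15, BMP6 -0.41, FGF7 -0.90, FGF2 -0.57, PCSK1 -0.93 and IL6 -1.50. In the planned mean of late against early libraries they were PDK4 -0.018, SLC7A5 -0.026, SLC3A2 -0.21, FGF2 -0.69 and SNORA8 -0.11, 5 genes. Besides these, the fold moved by over 1.5 times for 126 of the 219 genes with 24 h as the end, 98 with 6 h as the start, 119 in the late against early mean, 16 with a pseudocount of 0.1 and 36 with a pseudocount of 5. So did 7, 8 and 4 of 48 list medians in the first 3 of these settings. The cause was not tested. No paired analysis was possible because each line and time holds 1 library. Leaving out a replicate was likewise not possible. At this depth a difference in a gene near 1 FPKM rests on few fragments.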

Other observations

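A few groups outside the comparisons above also differed. Of 17 kept clock genes 3 were at least 2-fold higher, with DBP at 6.31, 2.06, 4.42, 4.87 and 17.9 FPKM, PER1 at 6.27, 1.48, 3.35, 7.37 and 14.8 FPKM and the repressor NR1D1 at 28.00, 17.9, 47.2, 52.8 and 57.99 FPKM, while the core activator ARNTL differed by -0.12. DBP and PER1 were lowest at 6 h and highest at 48 h. KYNU, which cleaves kynurenine in tryptophan breakdown, stood at 78.2, 227, 217, 172 and 334 FPKM, and NAMPT, which starts the recycling of NAD, at 69.5, 61.6, 57.5, 65.4 and 130.1 FPKM.

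S100A4, a calcium-binding protein linked to cell motility, was the 1 of 13 kept S100 and annexin genes at least 2-fold higher, at 1.40, 5.64, 5.08, 2.61 and 9.51 FPKM. The mesenchymal factors SNAI1 and SNAI2 stood at 0.810, 1.64, 0.900, 3.21 and 3.94 FPKM and at 81.1, 58.5, 73.7, 111 and 164 FPKM. IGFBP7, which binds insulin-like growth factors, was the 1 of its family past 2-fold, at 7.87, 15.1, 16.4, 9.35 and 19.3 FPKM. CD44, the hyaluronan receptor, stood at 258, 552, 683, 691 and 487 FPKM.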
